A study of Mus musculus with 4 samples.

Results

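The genes described here are MYC, its DNA-binding partner MAX and 33 genes of ribosome manufacture in the nucleolus or of metabolism that MYC is known to drive. They were listed by name, and each was read from the brightest probe set that the platform annotation assigns to that gene alone. Of the 35 genes, 34 were measured, out of 18193 named genes on the array. Mrto4 was left out because its probe set is annotated to several genes. Expression was measured on 4 one-colour Affymetrix arrays of K7M2, a metastatic mouse osteosarcoma line grown in DMEM with serum. One array held cells over-expressing GFP and 3 held cells over-expressing ezrinT567A-GFP (replicates 1 to 3), an ezrin that cannot be phosphorylated at its regulatory C-terminal threonine. The design text speaks of a wild-type control, which in the labels is the GFP line, and the labels do not say which promoter drives the transgene, whether the lines are clones or whether the replicates are separate cultures.

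MYC is a transcription factor that binds DNA as a pair with MAX, at a sequence called the E-box, and drives cell growth. Much of that growth programme is ribosome assembly. In the nucleolus, RNA polymerase I copies the ribosomal DNA, small nucleolar ribonucleoproteins (snoRNPs) modify the transcript, and separate sets of factors cut, fold and export the small and the large ribosomal subunits. Osteosarcomas often carry extra copies of MYC.

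No promoter sequence was read to list the genes. They were listed as genes tied to MYC, however, so a share of E-boxes among them is not independent of that choice. The RefSeq promoters of mouse build GRCm38.p6, each running from 250 bases before to 50 bases after a start site, held 28 of the 35 genes, and the 6 letters CACGTG, which read the same on both strands, occurred in 7 of them (25%). Among the 14452 genes measured on these arrays that have a promoter there, 10.2% held the motif. The matching stretches are shown because they are the places in these promoters where a MYC and MAX pair could sit, written along the gene's strand with the motif in capitals.

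Nop2: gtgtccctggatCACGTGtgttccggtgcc
Ltv1: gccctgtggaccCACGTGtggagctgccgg
Utp20: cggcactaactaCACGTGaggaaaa
Pes1: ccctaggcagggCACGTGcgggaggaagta
Tsr1: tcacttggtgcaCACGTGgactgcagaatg
Max: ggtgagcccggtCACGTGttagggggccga
Wdr43: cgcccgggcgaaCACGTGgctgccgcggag

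The stretches lie at chr6:125131811-125131840 (plus strand) for Nop2, chr10:13193092-13193121 (minus) for Ltv1 and chr10:88826765-88826789 (minus) for Utp20. Those of Pes1 and Tsr1 lie at chr11:3963965-3963994 (plus) and chr11:74898092-74898121 (plus), that of Max at chr12:76962234-76962263 (minus) and that of Wdr43 at chr17:71616220-71616249 (plus). Relative to the start site, the first base of the motif lies farthest before it for Nop2, at -60, and farthest after it for Utp20, at 38. A match to these letters is a description of the sequence and shows no binding.

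As a group, the 34 genes did not move in 1 direction. Differences are given in log2 units, as the mean of the 3 ezrinT567A-GFP arrays less the GFP array. They ran from -0.54 (Dkc1) to 0.31 (Polr1b) with a median of -0.021, where all 18193 genes had a median of 0.032. The median over the genes against GFP was 0.00099 in replicate 1, -0.073 in replicate 2 and -0.060 in replicate 3. Every array of ezrinT567A-GFP lay above GFP for 10 genes and below it for 12, and 12 had arrays on both sides or level with GFP. Over all genes 32.5% had all 3 arrays above GFP and 25.6% all 3 below. These shares were 37% and 29.6% among the 9096 genes brighter than the median gene; all 34 genes belong to these. By brightest probe set, the shares among the 34 genes therefore lay near the background. Of all 67 probe sets of these genes, 15 lay above GFP in all arrays and 31 below, beside 30.2% and 26.3% of all probe sets. These counts take some genes several times, such as Ncl with 5 probe sets, so they are not counts of genes.

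None of the 34 genes passed limma's test over all genes at an adjusted p of 0.05, as did 0% of the 18193 genes. At an unadjusted p under 0.05, 3 of the 34 were lower (Myc, Dkc1 and Ncl) and 0 higher, beside 6.5% of all genes lower and 7.46% higher. Among the 9096 genes brighter than the median gene, 798 were lower and 1024 higher at that p. The share of lower members therefore lay near that of genes as bright. The same background stands beside the counts at this p for each list below. No member differed 2-fold from GFP, a size reached by 1.68% of all genes. The 34 adjusted p-values ran from 0.236 to 0.981. Because GFP has a single array, the spread behind each test comes from the ezrinT567A-GFP arrays, and permuting the 4 arrays exactly would give p = 0.25 at the smallest. In these bulk samples a lower signal from fewer cells with a transcript and from less of it per cell cannot be told apart.

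**Figure D1:**
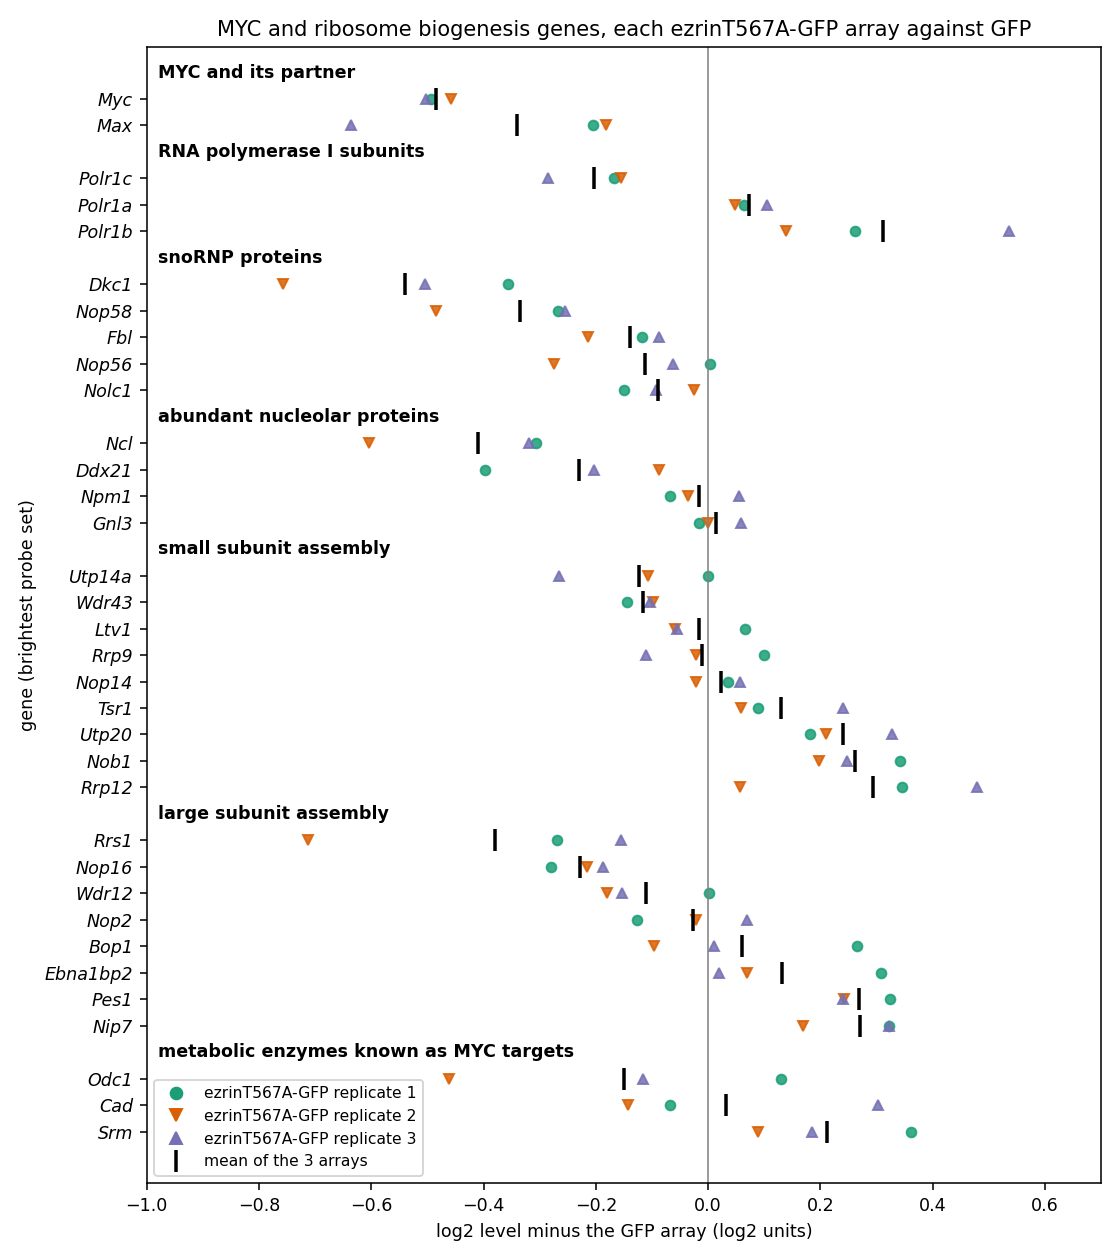
Each row is 1 of the 34 genes, ordered within its role, and the horizontal axis is the log2 level minus that of the GFP array. Coloured points are the 3 ezrinT567A-GFP arrays and black bars their means, which run from -0.54 for Dkc1 to 0.31 for Polr1b around the grey line at 0.

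Myc has 1 probe set, and its level was 9.20 in GFP and 8.71, 8.75 and 8.70 in ezrinT567A-GFP replicates 1, 2 and 3. All 3 arrays lay below GFP and close to each other. The mean was 8.72 ± 0.024 (SD, n = 3), a difference of -0.48 (SE 0.10, 95% interval -0.75 to -0.22, limma adjusted p = 0.236), or 1.40-fold lower. The difference exceeded the spread between replicates but did not pass the test over all genes. Max, the obligate partner, read 6.36 in GFP and 6.16, 6.18 and 5.73 in the 3 arrays. These also lay below GFP, but replicate 3 stood well under the others, and the difference of -0.34 (SE 0.23, limma adjusted p = 0.589) had an interval from -0.97 to 0.29.

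The other genes of this network showed no common direction. Of 11 measured, which include the MXD proteins that compete with MYC for MAX, 4 had all arrays above GFP and 2 all below, with a median of -0.022. Mxi1, one of these antagonists, read 8.28 in GFP and 7.93 ± 0.090 (SD, n = 3), and was the only 1 of the 11 with an unadjusted p under 0.05 (adjusted p = 0.347 with limma). Mxd3, another antagonist, differed by -0.41 (SE 0.19), and the repressor Mnt by 0.26 (SE 0.18). Among 8 genes that MYC is known to repress, 3 lay above GFP in all arrays and 3 below, with a median of 0.024. Of these, the hypoxia- and stress-responsive Ndrg1 differed by 0.49 (SE 0.23), the secreted chaperone Clu by -0.77 (SE 0.26) and the cell cycle inhibitor Cdkn2b, near the bottom of the scale at 3.20 in GFP, by -0.21 (SE 0.11).

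The 3 subunits of RNA polymerase I, the enzyme that copies ribosomal DNA, went different ways. The largest subunit, Polr1a, read 7.36 in GFP and 7.42, 7.41 and 7.46 in the 3 arrays, a difference of 0.072 (SE 0.11, limma adjusted p = 0.831). Its 5 probe sets ranged from -0.17 to 0.23, so the sign depends on the probe set. The second-largest, Polr1b, read 6.37 in GFP against 6.63, 6.51 and 6.90, which is 0.31 higher (SE 0.20, adjusted p = 0.557). Polr1c, shared with RNA polymerase III, read 9.05 in GFP against 8.88, 8.89 and 8.76, a difference of -0.20 (SE 0.11, adjusted p = 0.503).

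All 3 ezrinT567A-GFP arrays lay on 1 side of GFP for each of these subunits, above it for Polr1a and Polr1b and below it for Polr1c. Of 12 further RNA polymerase I genes, 4 lay above GFP in all arrays and 5 below, with a median of 0.056. Taf1c, a subunit of the promoter selectivity factor SL1, went from 5.97 to 6.53 ± 0.032 (SD, n = 3), while another SL1 subunit, Taf1a, differed by -0.70 (SE 0.30). Polr1d, a further subunit common to polymerases I and III, differed by -0.40 (SE 0.087, limma adjusted p = 0.247). RNA polymerase III, which makes 5S rRNA, gave 5 genes above and 6 below among 19, with Gtf3a, the 5S gene's own transcription factor, from 9.72 to 8.97 ± 0.12 (SD, n = 3). Gtf3c2, a TFIIIC subunit, differed by -0.65 (SE 0.18) and the initiation factor Brf2 by 0.42 (SE 0.14).

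The snoRNP proteins all had means below GFP. Dkc1, the pseudouridine synthase that also stabilises telomerase RNA, read 8.81 in GFP and 8.46, 8.05 and 8.31 in the 3 arrays. This is a difference of -0.54 (SE 0.19, limma adjusted p = 0.344, interval -1.06 to -0.02), or 1.45-fold lower, with replicate 2 the lowest. Its other probe sets agreed in sign, at -0.32 and -1.02. With the level of the hybridization spike-ins in the fit, the differences of Dkc1, Nop58 and Fbl were -0.059, -0.041 and -0.0014. GFP had the lowest spike-in level, so these values are extrapolated beyond the ezrinT567A-GFP arrays and are not corrected differences. Nop58, a core protein of the methylating box C/D particles, read 9.35 in GFP against 9.09, 8.87 and 9.10 (difference -0.34, SE 0.14, adjusted p = 0.393). Fbl, the methyltransferase of those particles, read 10.49 against 10.37, 10.27 and 10.40 (difference -0.14, SE 0.096, adjusted p = 0.594). Its other probe set, at 10.04 in GFP, gave a larger difference of -0.40 (SE 0.12), below GFP in all arrays.

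Replicate 2 was the lowest array for all 3 of these genes. Nop56, the partner of Nop58, differed by -0.11 with replicate 1 just above GFP, and Nolc1, a chaperone of snoRNPs, by -0.089 with its probe sets between -0.089 and 0.065. Of 12 further snoRNP genes, 8 lay below GFP in all arrays and 2 above, with a median of -0.12, and 2 were lower and 1 higher at an unadjusted p under 0.05. The assembly factors Nufip1 (-0.36, SE 0.12) and Znhit3 (-0.34, SE 0.12) lay below GFP. Nop10, which sits beside Dkc1 in the box H/ACA particles, went the opposite way, from 10.19 to 10.54 ± 0.051 (SD, n = 3).

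Among the abundant nucleolar proteins, nucleolin and nucleophosmin differed from each other. Ncl, which binds nascent pre-rRNA, read 11.90 in GFP and 11.59, 11.30 and 11.58 in the 3 arrays. The difference was -0.41 (SE 0.15, limma adjusted p = 0.356), or 1.33-fold lower, with replicate 2 again the lowest. With the spike-in level in the fit the difference was -0.018, extrapolated as for Dkc1. All 5 probe sets of Ncl lay below GFP in all 3 arrays, by -0.41 to -1.04, and the largest of these differences came from a probe set at 7.71 in GFP and 6.67, 6.52 and 6.80 in ezrinT567A-GFP. Probe sets of 1 gene share the same RNA and arrays, so they check the probes and not the samples.

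Npm1, a histone and ribosomal protein chaperone, read 12.04 in GFP and 11.97, 12.003 and 12.09, arrays on both sides of GFP. Its difference of -0.016 (SE 0.082, limma adjusted p = 0.955) had an interval from -0.24 to 0.21. Ddx21, an RNA helicase, read 9.61 against 9.21, 9.52 and 9.40 (difference -0.23, SE 0.15, adjusted p = 0.581), but another probe set gave 0.064. Gnl3, or nucleostemin, a GTPase of proliferating cells, differed by 0.014 with an SD of 0.039 between arrays (n = 3).

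**Figure D2:**
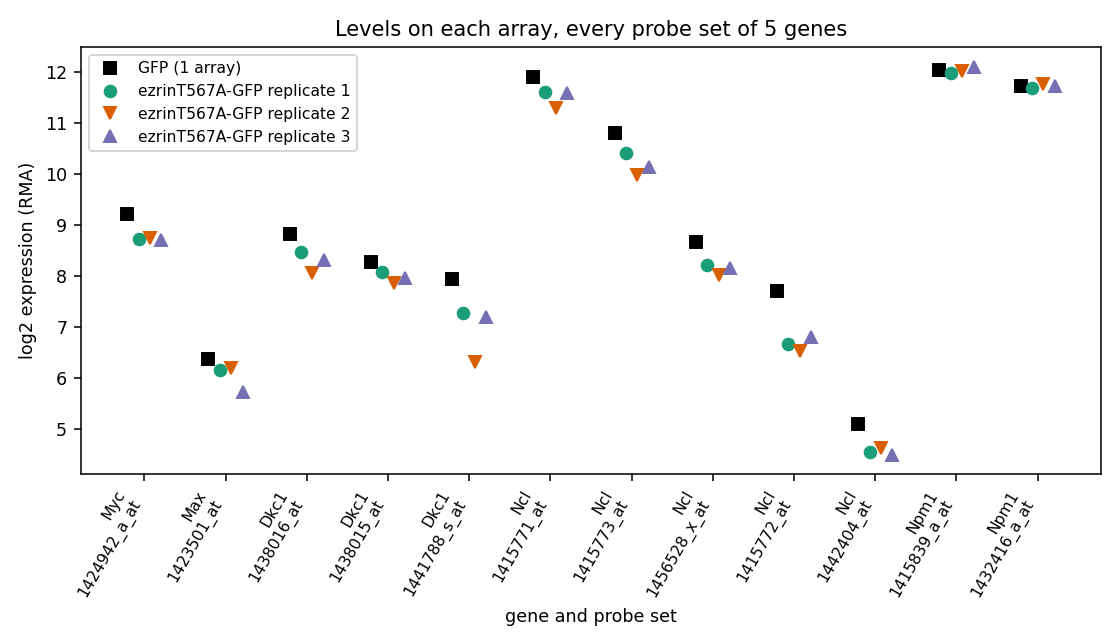
Log2 expression on each of the 4 arrays (vertical axis) for every probe set of Myc, Max, Dkc1, Ncl and Npm1 (horizontal axis). Black squares are GFP and coloured symbols the 3 ezrinT567A-GFP replicates, which lie below GFP for all probe sets of Myc, Max, Dkc1 and Ncl and on both sides of it for Npm1.

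Small subunit assembly genes lay on both sides of GFP, with 4 of 9 above in all arrays, 1 below and a median of 0.023. Nob1, the nuclease that makes the final cut of 18S rRNA, read 8.54 in GFP and 8.88, 8.74 and 8.79 in the 3 arrays (difference 0.26, SE 0.11, limma adjusted p = 0.411). Utp20, a large scaffold of the small subunit processome, read 8.63 against 8.81, 8.84 and 8.96 (difference 0.24, SE 0.12, adjusted p = 0.446). Rrp12, an export factor, read 7.23 against 7.58, 7.29 and 7.71 (difference 0.29, SE 0.20, adjusted p = 0.593).

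Replicate 2 lay close to GFP for Rrp12, at 0.057 above it, while Nob1 and Utp20 stood clear of GFP on every array. Tsr1, a GTPase-like factor of the late pre-40S particle, differed by 0.13 with all arrays above GFP, and Wdr43, a processome WD-repeat protein, by -0.12 with all arrays below. The other probe set of Wdr43, at 8.57 in GFP, gave -0.47 (SE 0.28). The U3 snoRNP protein gene Rrp9 (-0.011), the processome genes Nop14 (0.023) and Utp14a (-0.12) and the export adaptor Ltv1 (-0.016) had arrays on both sides of GFP or level with it. A further 43 small subunit genes had 13 above and 18 below in all arrays, with a median of -0.054. Of these, 3 were higher and 5 lower at an unadjusted p under 0.05 and 0 passed limma's adjusted test. Utp4, a processome protein, went from 9.08 to 9.55 ± 0.030 (SD, n = 3), the helicase Ddx49 differed by 0.52 (SE 0.12) and the GTPase Bms1 by -0.36 (SE 0.099).

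The large subunit factors also lay on both sides, with 3 of 8 genes above GFP in all arrays, 2 below and a median of 0.017. Pes1, Bop1 and Wdr12 form the PeBoW complex of large subunit maturation, and they did not move together. Pes1 read 8.50 in GFP and 8.82, 8.74 and 8.74 in the 3 arrays (difference 0.27, SE 0.11, limma adjusted p = 0.377), although a dim second probe set gave -0.14. Bop1 differed by 0.060 (probe sets -0.086 to 0.060) and Wdr12 by -0.11, each with arrays on both sides of GFP.

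Nip7, which is needed for pre-rRNA processing, read 9.46 in GFP against 9.79, 9.63 and 9.79 (difference 0.27, SE 0.11, limma adjusted p = 0.395). Nop16 went the opposite way, at 8.45 against 8.17, 8.23 and 8.26 (difference -0.23, SE 0.11, adjusted p = 0.442), and so did Rrs1, a carrier of the 5S particle, at -0.38 (SE 0.25), with replicate 2 the lowest. Ebna1bp2 differed by 0.13 (probe sets -0.092 to 0.20) and the rRNA methyltransferase Nop2 by -0.027.

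A further 44 large subunit genes had 19 above and 10 below GFP in all arrays, with a median of 0.038, and 7 higher and 5 lower at an unadjusted p under 0.05. Nifk (-0.51, SE 0.11), Nvl (-0.48, SE 0.12) and Ddx18 (-0.59, SE 0.15) had the smallest p. The probe sets of Nvl ran from -0.54 to -0.036 and those of Ddx18 from -0.59 to -0.016. One gene of this list, the helicase Ddx24, differed 2-fold, from 8.59 to 9.61 (difference 1.02, limma adjusted p = 0.278), with probe sets between 0.17 and 1.02. It was singled out after its values were seen.

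The 3 metabolic enzymes stand in the list as classical MYC targets. Srm, spermidine synthase, read 10.55 in GFP and 10.91, 10.64 and 10.73 in the 3 arrays, all above GFP (difference 0.21, SE 0.13, limma adjusted p = 0.562). Odc1, the rate-limiting enzyme of polyamine synthesis, read 11.02 against 11.15, 10.56 and 10.90 (difference -0.15, SE 0.25, adjusted p = 0.845), and Cad, which starts pyrimidine synthesis, 8.53 against 8.46, 8.39 and 8.83 (difference 0.031, SE 0.21, adjusted p = 0.967). Both of these had arrays on either side of GFP by their brightest probe sets, and the probe sets of Cad ran from -0.24 to 0.031. Those of Odc1 ran from -0.31 to -0.15, and 1 of them, at 10.60 in GFP, lay below GFP in all arrays.

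Elsewhere in polyamine metabolism, Sat1, which acetylates spermidine and spermine for export or breakdown, stood apart. It read 8.71 in GFP and 10.48, 10.30 and 10.04 in the replicates. Its difference was 1.56 (SE 0.20, limma adjusted p = 0.187), the largest among the 175 other genes measured for this pathway. The remaining 6 polyamine genes ran from -0.093 (Oaz1, the antizyme that directs Odc1 to the proteasome) to 0.16 (Arg2, a dim arginase). Among 19 nucleotide synthesis genes 5 lay above GFP in all arrays and 7 below, with a median of -0.035. The first enzyme of purine synthesis, Ppat, went from 7.36 to 6.45 ± 0.077 (SD, n = 3) with probe sets between -0.95 and -0.070, and the later enzymes Paics (-0.42, SE 0.11) and Atic (-0.60, SE 0.18) were below GFP. Of the other purine enzymes, Gart (0.30, SE 0.10) and Gmps (0.31, SE 0.11, probe sets -0.31 to 0.31) lay above GFP in all arrays. Pfas (-0.40, SE 0.21) lay below it in all arrays, and Adsl (-0.0043, SE 0.15) had arrays on both sides. These enzymes were named after their values were seen.

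**Figure D3:**
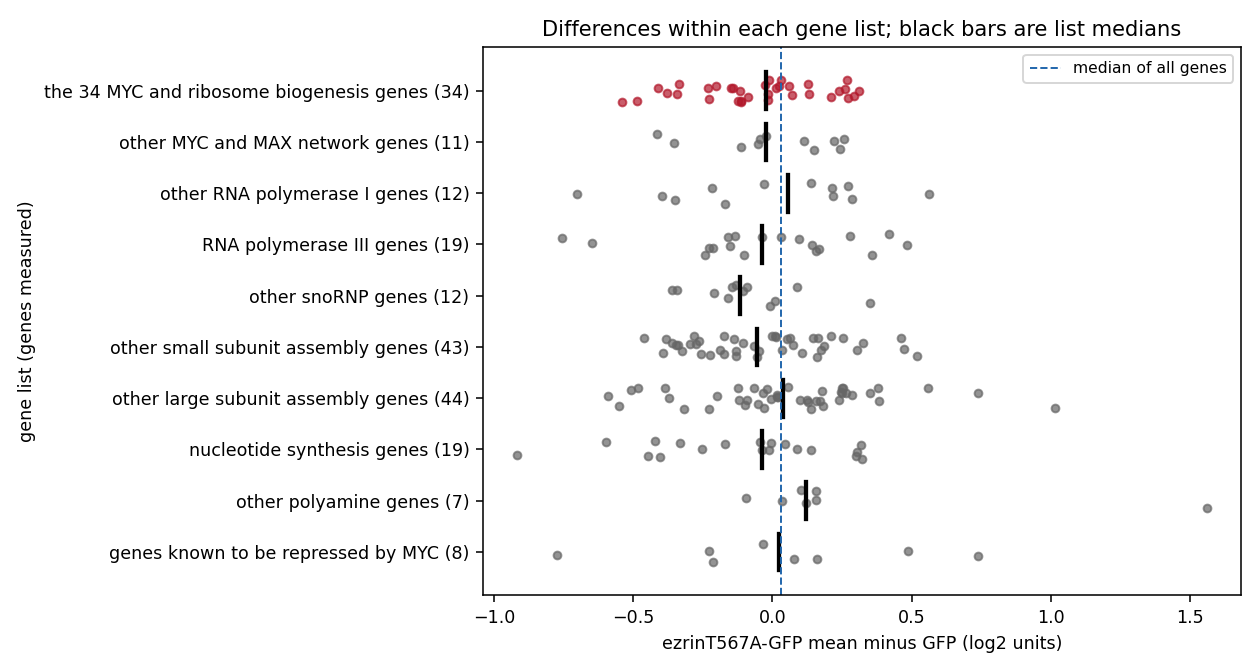
Each point is a gene, placed by its log2 difference from GFP, for the 34 genes (red) and for the 9 lists of other genes (grey). Black bars are list medians, which lie between -0.12 for snoRNP genes and 0.12 for polyamine genes, and the dashed line is the median of all genes, 0.032.

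The lists together held 175 measured genes of 182, with 59 above GFP in all arrays, 60 below and a median of -0.0094. At an unadjusted p under 0.05, 15 were higher and 20 lower, beside 7.46% and 6.5% of all genes, and limma's adjusted test called 0. Of the 175 genes, 165 are brighter than the median gene. Among all 9096 such genes 1024 were higher and 798 lower at that p.

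The side on which a gene lay went with its chromosome for some chromosomes. Members on chromosome 1, Ncl, Nop58, Rrs1 and Wdr12, all had means below GFP, by -0.41, -0.34, -0.38 and -0.11, and on chromosome 8 both members, Nip7 and Nob1, were above, by 0.27 and 0.26. Those on chromosome 1 had a median of -0.36 and those on chromosome 8 a median of 0.27, while the 28 members elsewhere had a median of -0.016. The other genes brighter than the median gene had the same signs, with a median of -0.33 over 506 genes of chromosome 1, 72.7% of them below GFP in all arrays, and of 0.24 over 514 genes of chromosome 8, 66.5% of them above.

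The other pathway genes on chromosomes 1 and 8 had the same signs. All 9 on chromosome 1 had means below GFP, from -0.70 (Taf1a) to -0.10 (Gtf3c3), with a median of -0.48. All 8 on chromosome 8 had means above, from 0.087 (Dhodh) to 0.56 (Taf1c), with a median of 0.40. By the measure used for the chromosomes, 8 of the 9 lay below GFP in all arrays and 7 of the 8 above. Shares of chromosome genes by the sign of the mean were not computed. On chromosome 2 all 12 had means above GFP by their brightest probe sets, 9 of them in all arrays, from 0.10 (Smox) to 0.46 (Nat10), with a median of 0.25. There 741 genes brighter than the median gene had a median of 0.11, and 48.0% of them lay above GFP in all arrays. These chromosome values leave out the members only, so they include other pathway genes. Probe sets differed in sign for Nat10 (-0.37 to 0.46), Polr3k (-0.43 to 0.17), Polr3f (-0.22 to 0.29), Eif6 (-0.16 to 0.25), Mga (-0.085 to 0.24) and Smox (-0.099 to 0.10). That 0.25 became 0.12 with the mean of each gene's probe sets and 0.15 with _at probe sets alone. The members there went both ways, Polr1b at 0.31 and Nop56 at -0.11. The choice of these 3 chromosomes was made from their values. They hold Nifk, Nvl, Ddx18, Atic and Taf1a on chromosome 1, Taf1c, Utp4, Ddx49 and Brf2 on chromosome 8, and Nop10 on chromosome 2, which are among the genes with the smallest p in the lists above. The 146 pathway genes elsewhere had 64 means above GFP and 82 below, with a median of -0.030. Not every shifted chromosome showed the pattern. Chromosome 11 had a median of 0.11, as on chromosome 2, with 9 pathway means above GFP and 10 below. Chromosome 12 (median 0.11) had 7 above and 2 below. Chromosome 17 (-0.13) had 2 above and 6 below, and X (-0.14) had 1 above and 3 below.

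Not every member followed its chromosome. Of the 34 genes, 20 lay on the side of the median of their chromosome. Among the 17 on chromosomes with a median at least 0.1 from 0, 13 did. A median by definition puts most genes of a chromosome on its side. The share over all genes was not computed, so these counts do not show that members followed their chromosomes more or less than other genes. Myc on chromosome 15 (chromosome median 0.043) and Max on chromosome 12 (0.11) lay below GFP while their chromosomes did not, and Myc was the member farthest below its chromosome median, at -0.53. Dkc1, on the X chromosome, lay below a chromosome median of -0.14. DNA copy number was not measured, and its part in these differences was not tested.

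**Figure D4:**
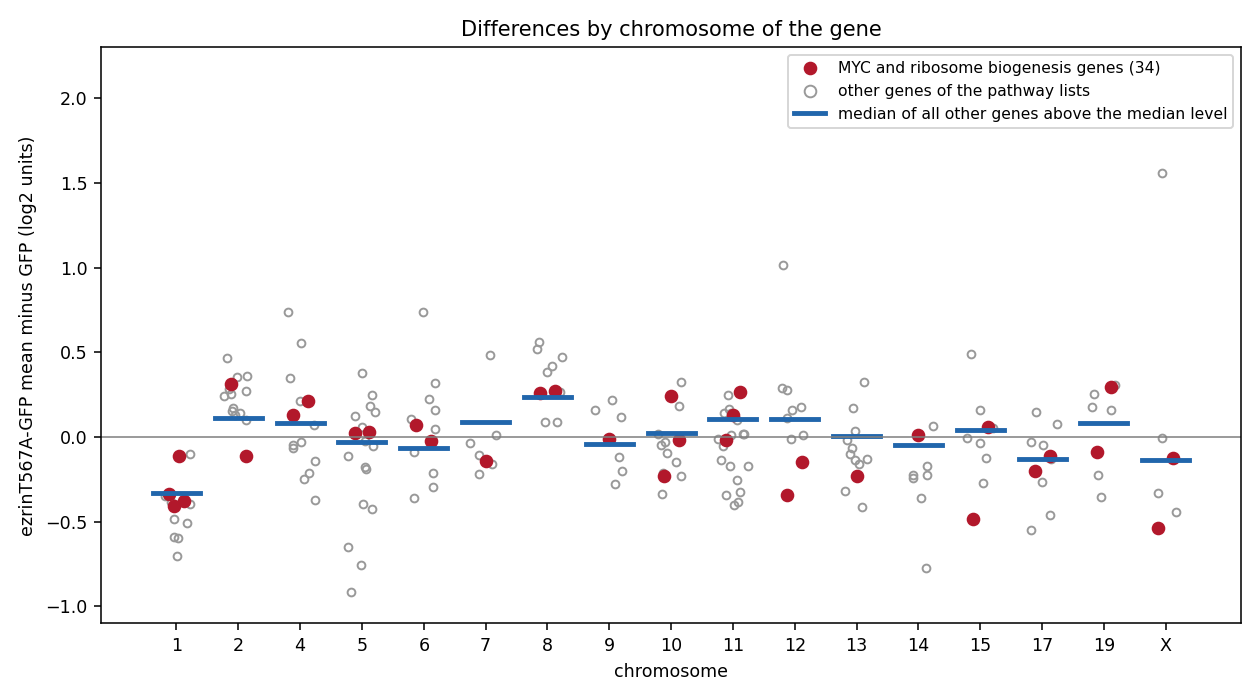
Genes are placed by chromosome (horizontal axis, chromosomes that hold a member) and by difference from GFP in log2 units (vertical axis). Red points are the 34 genes and open grey points the other pathway genes. Blue bars are the median of all genes brighter than the median gene except the 34, with other pathway genes included. It is -0.33 on chromosome 1 and 0.24 on chromosome 8.

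The members with and without the E-box letters overlapped in their differences. The 7 with the motif ran from -0.34 (Max) to 0.27 (Pes1) with a median of -0.016, 3 above GFP in all arrays and 2 below. The 20 measured members whose promoter lacked it ran from -0.54 to 0.31 with a median of -0.10, 5 above and 7 below. Nothing about MYC binding follows from a promoter of this length without the letters.

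Several technical readings moved with the groups or between replicates. The 18 spike-in probe sets for hybridization had a mean of 9.32 on the GFP array, 10.13 in replicate 1, 11.11 in replicate 2 and 10.38 in replicate 3, so replicate 2, the lowest array for Ncl, Dkc1, Nop58, Fbl and Rrs1, was the highest for spike-ins. When that level entered the fit, the median difference of the 34 genes was 0.090 instead of -0.021, and the difference of Myc was -0.54. Odc1, Rrs1, Nop56, Wdr12, Rrp9 and Ltv1 then lay on the other side of GFP, with Odc1 at 0.55 and Rrs1 at 0.25. Because GFP had the lowest spike-in level, this fit extends a line through the ezrinT567A-GFP arrays to a level none of them had. Group and spike-in level cannot be separated here, so the fit shows sensitivity to the setting and gives no corrected difference. The 18S rRNA probe sets, which read ribosomal RNA carried into the labelling, had a mean of 9.09 on the GFP array against 7.65, 11.35 and 7.76, arrays on both sides of GFP, and say nothing of ribosome content here.

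Of the osteoblast-lineage markers 6 of 9 were measured. The collagen genes Col1a1 and Col1a2 and the matrix gene Sparc were bright (10.99 to 12.45 on all arrays). The bone factor gene Sp7 lay at 5.05 to 5.41, and Alpl and Ibsp lay at 2.74 to 4.02. All but 1 of 9 epithelial markers lay below GFP in all arrays, with a summed signal of 8.70 on the log2 scale in GFP and 6.88 to 7.17 in ezrinT567A-GFP. The part of this in the differences of the 34 genes was not tested. Endothelial markers (4 of 4 measured) summed to 5.30 in GFP and 5.18 to 5.38. Of 6 leukocyte genes 5 lay between 2.10 and 4.52 on all arrays, and Csf1r, the receptor for a macrophage growth factor, at 11.9 to 12.2.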

How the data were processed

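The authors deposited 1 log2 value for each probe set and array, computed with RMA per the submitters' processing notes. The software is not given in the sources used here. The log2 scale was read from the range and from array medians of 3.85, 3.87, 3.89 and 3.86, and no centring of genes was seen. RMA aligns probe intensities between arrays before summarising them, and a shift of all transcripts together may not show.

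Of 45101 probe sets, 34945 named 1 gene and were no control. Each gene was represented by its brightest probe set. The contrast was tested in R 4.3.3 by limma 3.58.1 (lmFit, eBayes with a mean trend; 2 residual and 2.23 prior degrees of freedom), two-sided, with Benjamini-Hochberg adjustment over 18193 genes. SE is moderated, and each p-value reflects the spread of these few arrays, which may be technical; their number limits the precision. Figures used matplotlib 3.10.9.

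Members, lists and tests were chosen with earlier results of these data known. All members are named, in full for Myc, Max and the 3 of each role with the smallest p; from each list, up to 3 genes with the smallest p. Polr1f, Polr1g and Polr1h were read under older symbols. Chromosomes and promoters came from RefSeq, GRCm38.p6. Alternatives were other normalizations, probe set choices, a filter on dim genes, other priors, a spike-in covariate and leaving out each replicate; those for chromosomes and motif, and the covariate for single members, were chosen after seeing the data.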

Additional observations from a re-analysis of the deposited data

How the results depend on the processing

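Under 11 alternatives 0 of the measured members passed limma's adjusted test (28 members with _at probe sets alone, 34 otherwise), with 1 to 4 of them at an unadjusted p under 0.05, although limma called 34 of all genes after quantile normalization and 26 after centring. Of 368 alternative values of single members 345 kept their sign. The 23 that did not belonged to 13 members: with the spike-in covariate Nop56 (0.23), Rrp9 (0.073), Ltv1 (0.10), Wdr12 (0.075), Rrs1 (0.25) and Odc1 (0.55); after quantile normalization Rrp9 (0.011) and Ltv1 (0.0028); after centring Gnl3 (-0.034), Nop14 (-0.025) and Cad (-0.017); with the mean of probe sets Nolc1 (0.014), Bop1 (-0.013) and Cad (-0.14); without replicate 1 Npm1 (0.010), Bop1 (-0.042) and Nop2 (0.024); without replicate 2 Ltv1 (0.0051) and Odc1 (0.0066); without replicate 3 Gnl3 (-0.0082), Rrp9 (0.039), Ltv1 (0.0040) and Cad (-0.10). Over the 3 fits that left out a replicate, Npm1 ran from -0.051 to 0.010, Gnl3 from -0.0082 to 0.029, Rrp9 from -0.066 to 0.039, Ltv1 from -0.057 to 0.0051, Bop1 from -0.042 to 0.14, Nop2 from -0.075 to 0.024, Odc1 from -0.29 to 0.0066 and Cad from -0.10 to 0.12. Myc, which has no _at probe set, ran from -0.54 to -0.48, Dkc1 from -0.63 to -0.059 and Ncl from -0.63 to -0.018, the last 2 nearest to GFP with the spike-in covariate. The fit with that covariate extrapolates to the spike-in level of GFP, which lay below that of every ezrinT567A-GFP array.

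The members' median was -0.069 after centring, 0.090 with the spike-in covariate and -0.064 to -0.0057 without 1 replicate. With the mean of probe sets 6 members lay above GFP in all arrays instead of 10. After centring, medians were 0.024 for polymerase I subunits, -0.10 for other small subunit genes, 0.072 for polyamine genes and -0.057 for all lists. With the mean of probe sets they were 0.025 for polymerase I subunits, -0.27 for snoRNP proteins, -0.045 for abundant nucleolar proteins, -0.055 for other polymerase I genes, -0.020 for other small subunit genes, -0.089 for nucleotide synthesis and 0.041 for polyamine genes. With _at probe sets alone they were -0.34, -0.32 and -0.20 for snoRNP proteins, abundant nucleolar proteins and other polymerase I genes, 0.065 for polymerase III, -0.17 for nucleotide synthesis and 0.14 for polyamine genes. Without 1 replicate the medians of other MYC network genes ran from 0.029 to 0.11, other polymerase I genes from -0.059 to 0.027, polymerase III from -0.061 to 0.037, other small subunit genes from -0.074 to -0.058, polyamine genes from 0.13 to 0.15 and members without the E-box letters from -0.11 to -0.018.

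The other pathway genes of chromosome 1 had medians of -0.53 after centring, -0.39 with the mean of probe sets and -0.49 to -0.45 without 1 replicate. Those of chromosome 8 had 0.35, 0.34 and, with _at probe sets alone, 0.26, and those of chromosome 2 had 0.12 with the mean of probe sets and 0.15 with _at probe sets alone. The cause of these shifts was not tested. No paired analysis was possible because GFP has 1 array and no replicate number. Signal over background per array was not analysed here.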
